A study of Rattus norvegicus with 256 samples.

Results

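The hormone genes of the anterior pituitary were followed through a survey of rat organs. They are Gh1, Prl, Pomc, Tshb, Fshb, Lhb and Cga, and every probeset annotated to 1 of these 7 symbols was taken, which gave 8 probesets of the 31042 on the array (Fshb has 2). The survey measured RNA from 31 organs on Affymetrix RAE230_2 arrays, 127 from males and 129 from females. Each array held 1 organ of 1 untreated animal of the Han Wistar-derived strain AlpkHsdBrlHan:WIST, killed with halothane, and RNA was not pooled. All organs came from the same 5 males and 5 females, so arrays of different organs share animals. The pituitary was represented by 10 arrays, from 5 males and 5 females. The sources used here give neither age nor stage of the oestrous cycle, and the label pituitary does not say whether the posterior lobe was included.

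Endocrine cells of the anterior lobe are named for the hormone they make. Somatotrophs make growth hormone (Gh1), lactotrophs prolactin (Prl), and corticotrophs the precursor Pomc, from which corticotropin is cut. Melanotrophs of the intermediate lobe cut Pomc into melanocyte-stimulating hormone. Thyrotrophs and gonadotrophs make glycoprotein hormones, in which a common alpha subunit (Cga) is joined to a beta subunit that gives the hormone its identity: Tshb in thyrotropin, Fshb in follicle-stimulating hormone and Lhb in luteinizing hormone. Releasing and inhibiting factors from the hypothalamus, and steroids and peptides returning from the gonads, adrenals and thyroid, are known to set how much of each is made.

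Values are log2 intensities as deposited, and a probeset counted as expressed where its mean passed about 6.7 in males or in females, the threshold of the study's methods. A probeset was called sexually differentially expressed (SDE) where it was expressed, differed by more than 2-fold between the sexes and had an adjusted p under 0.05 (limma, adjusted over all probesets). The 10 pituitary arrays were alike in overall level, with array medians between 4.15 and 4.19, and 29.7% to 30.7% of probesets above the threshold. Levels of different probesets are not compared, since probes differ in brightness. A lower value in an organ may come from fewer cells of a type or from less RNA per cell, which cannot be told apart here.

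All 7 hormone genes were expressed in the pituitary, on every array of both sexes except for the first Fshb probeset, which was below the threshold on the array of female 4. The sexes differed at an adjusted p under 0.05 for 5 of the 8 probesets, those of Prl, Tshb, Cga and Fshb (both), while 7.25% of all probesets did so in the pituitary. Only the 2 Fshb probesets met the SDE criteria, both higher in males, where 0.606% of all probesets were SDE with higher values in males. Gh1, Pomc and Lhb did not pass. Both shares are over all 31042 probesets, of which 9906 were expressed, as all members were. Of these 9906, 188 were SDE with higher values in males. The share with an adjusted p under 0.05 is also higher among expressed probesets, by the counts without a fold threshold in the closing section. The plot of pituitary values by sex shows each array.

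**Figure D1:**
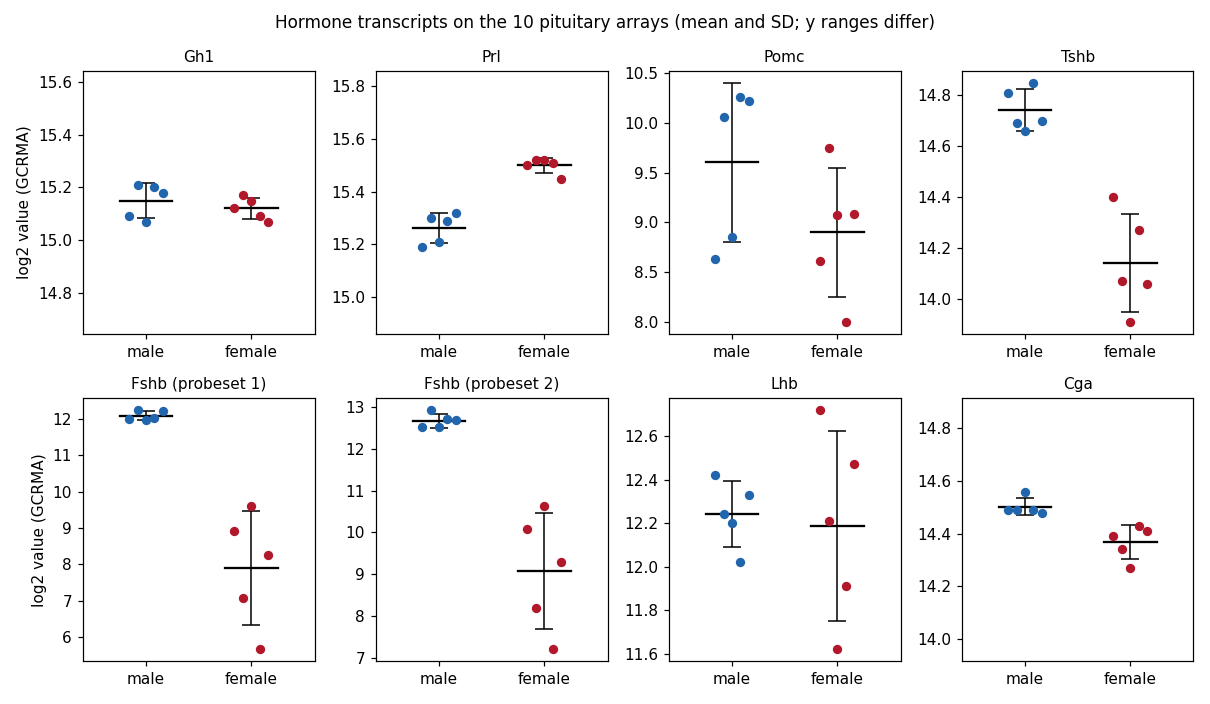
Log2 value (y axis, GCRMA) of the 8 hormone probesets on the pituitary arrays of 5 males (blue) and 5 females (red), with the mean (wide bar) and SD (whiskers); each panel has its own y range of at least 1 log2 unit. Both Fshb probesets are lower on all 5 female arrays and spread widely there, Tshb is lower in females by 0.60, and Gh1 lies between 15.07 and 15.21 in both sexes.

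Fshb, the beta subunit that makes follicle-stimulating hormone, showed the widest gap between the sexes among the 8 probesets. On the first probeset males 1 to 5 had log2 values of 12, 12.25, 11.98, 12.03 and 12.21, and females 1 to 5 had 8.93, 7.08, 9.61, 5.66 and 8.26. The 5 male values lay close together, every female value lay below them, and females differed among themselves by several log2 units. The means were 12.09 ± 0.13 (SD, n = 5) and 7.91 ± 1.57, a difference of 4.19 (SE 0.67), or 18.2-fold (limma adjusted p = 0.00723).

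The second Fshb probeset gave the same picture. Its name carries the suffix that marks probes that may match more than 1 transcript. It read 12.51, 12.92, 12.52, 12.70 and 12.68 in males and 10.08, 8.19, 10.62, 7.21 and 9.30 in females. Females stood in the same order on both probesets, with female 3 highest and female 4 lowest. The difference of the means was 3.59 (SE 0.59), or 12-fold (adjusted p = 0.00838). The SD of Fshb over the 5 females was at the 99.9th percentile of all expressed probesets for either probeset, while over the 5 males it was at the 19.3rd and the 34.4th. The part of the oestrous cycle in this spread was not tested.

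The other gonadotropin subunits did not share this gap. Lhb, the beta subunit of luteinizing hormone, had log2 values of 12.42, 12.24, 12.20, 12.02 and 12.33 in males and 12.72, 12.21, 11.62, 11.91 and 12.47 in females. The female values reached both above and below those of males. The difference of the means was 0.05 (SE 0.20), with an adjusted p of 0.906.

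Cga, the alpha subunit of all 3 glycoprotein hormones, read 14.49, 14.49, 14.56, 14.49 and 14.48 in males and 14.39, 14.34, 14.27, 14.43 and 14.41 in females. The sexes did not overlap, yet they were close. The difference was 0.13 (SE 0.03), or 1.10-fold, with an adjusted p of 0.0477. This call was lost by the methods' t-test (adjusted p = 0.0544) and under other settings given in the closing section. It was also lost on leaving out any 1 array (adjusted p 0.0607 to 0.105) except female 4 (adjusted p = 0.044).

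Differences between pairs of hormone genes were taken within each array and set between the sexes (exact permutation test, two-sided, 5 pairs of genes, smallest possible p = 0.00794, adjusted 0.00992). Fshb minus Lhb was 0.43 ± 0.25 in males and -3.11 ± 1.42 in females, a change of 3.53 (exact p = 0.00794, adjusted 0.00992). Fshb minus Cga differed between the sexes by 3.45 with the same exact p. Lhb minus Cga was -2.26 ± 0.16 in males and -2.18 ± 0.40 in females (exact p = 0.706). The sex difference of Fshb was thus unequal to that of either gene, and one between Lhb and Cga was not detectable with 5 animals a sex.

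Tshb, the beta subunit of thyrotropin, was higher in males. Its log2 values were 14.81, 14.69, 14.66, 14.85 and 14.70 in males and 14.40, 14.07, 13.91, 14.27 and 14.06 in females. Every male lay above every female. The means of 14.74 ± 0.08 and 14.14 ± 0.19 differed by 0.60 (SE 0.09), or 1.52-fold (adjusted p = 0.00521), which is under the 2-fold limit for SDE. Within arrays, Tshb minus Cga was 0.24 ± 0.10 in males and -0.23 ± 0.15 in females (exact p = 0.00794, adjusted 0.00992).

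Prl, the lactotroph hormone that drives milk production, was the 1 hormone gene higher in females. It read 15.19, 15.30, 15.21, 15.29 and 15.32 in males and 15.50, 15.52, 15.52, 15.51 and 15.45 in females, without overlap. The difference was -0.23 (SE 0.03), male minus female, or 1.18-fold (adjusted p = 0.00297). All 10 values were near the top of the measured range, whose highest value in the series was 15.83, and after quantile normalization the difference was -0.11. In 1 limma fit over all groups of the series, which takes its spread from all organs, the call was lost (adjusted p = 1). How far differences are compressed at this height was not tested.

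Gh1, the growth hormone gene of somatotrophs, did not separate the sexes. Males had log2 values of 15.09, 15.21, 15.07, 15.20 and 15.18, and females 15.12, 15.17, 15.15, 15.09 and 15.07. The difference was 0.03, with an adjusted p of 0.682. Gh1 minus Prl within arrays was -0.11 ± 0.02 in males and -0.38 ± 0.03 in females (exact p = 0.00794, adjusted 0.00992). Gh1, like Prl, lay near the top of the measured range (highest value in the series 15.83). How far a sex difference of Gh1, or of Gh1 minus Prl, is compressed at this height was not tested.

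Pomc, the precursor of corticotropin, was the most variable hormone gene among males. It read 8.63, 10.06, 8.85, 10.26 and 10.22 in males and 8.61, 9.75, 9.07, 8 and 9.08 in females, so that the sexes overlapped. The difference of 0.70 (SE 0.44) had an adjusted p of 0.414, and of 1.04e-06 in 1 limma fit over all groups of the series, which takes its spread from all organs. Its SD was at the 99.1st percentile of expressed probesets in males and the 97.8th in females. Pcsk2, a protease that cuts Pomc in melanotrophs, read 8.39, 9.73, 9.14, 9.90 and 9.59 in males and 9.19, 8.95, 7.95, 8.86 and 9.08 in females. Males 1 and 3 were the lowest males for both genes, while among females the 2 genes did not share their lowest array. How much intermediate lobe each sample held was not tested.

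Genes known to regulate each hormone were then examined in the lists given under the processing notes. Among all probesets in the pituitary, 0.606% were SDE with higher values in males and 0.567% with higher values in females, and the median difference was -0.01. Only expressed probesets could be SDE, and of these 9906 the counts were 188 and 176.

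Of 11 gonadotroph regulators, 5 were expressed and 2 were SDE, in opposite directions, with a median difference of -0.03. Gata2, a transcription factor of gonadotrophs and thyrotrophs, was higher in males, at 7.66 to 8.38 against 5.74 to 7.52 in females (difference 1.6, SE 0.31, adjusted p = 0.0171), where 1 of 5 female arrays was above the threshold. Its other probeset, at 2.41 in males and 2.44 in females, was below the threshold and did not pass (adjusted p = 0.463). Egr1, an immediate early factor that acts on Lhb downstream of gonadotropin-releasing hormone, was higher in females, at 9.88 to 11.68 against 6 to 9.30 in males, 3 of whose 5 arrays were above the threshold (difference -2.91, SE 0.67, adjusted p = 0.0349). The call of Egr1 was lost by the methods' t-test (adjusted p = 0.0585) and on leaving out any 1 array (up to 0.0787) except male 3 and female 3. Gnrhr, the receptor for gonadotropin-releasing hormone, read 10.61, 10.54, 9.63, 8.59 and 10.32 in females and did not pass (0.30, adjusted p = 0.724). Inhbb, an activin and inhibin subunit, and Foxl2, a factor that acts on Fshb, did not pass either (-0.36, adjusted p = 0.056, and -0.47, adjusted p = 0.204). Female 4, lowest of the females for Fshb, was also lowest for Gnrhr and highest for Gata2 and Egr1. The same female was lowest for Pomc, Tbx19 and Nr3c1 and highest for Gal, so this place was not particular to gonadotroph genes. For Lhb, Nr5a1 and Foxl2 it was at neither end.

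Of 6 lactotroph regulators, 3 were expressed and 2 were SDE, 1 in each direction. Gal, the neuropeptide galanin, which lactotrophs make and which oestrogen is known to raise, was below the threshold in all males (3.09, 4.83, 3.51, 2.73 and 3.78) and above it in all females (8, 8.14, 8.33, 11.15 and 8.51). Set against the threshold, females were at least 4.52-fold higher (fitted difference -5.24, adjusted p = 0.00232), and female 4 stood highest. Drd2, the dopamine receptor through which the hypothalamus restrains prolactin, was also higher in females (-0.90, SE 0.17, adjusted p = 0.0157), by less than 2-fold. Prlr, the prolactin receptor, was higher in males on 1 of its 3 probesets (1.44, SE 0.16, adjusted p = 0.0014), and the other 2 did not pass (0.05, adjusted p = 0.759, and 1.04, adjusted p = 0.183). In 1 fit over all groups its adjusted p was 0.0522. Tgfb1, at 5.44 in males and 5.26 in females, and Vip, at 2.52 and 2.32, were below the threshold.

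Of 6 corticotroph and melanotroph regulators, 4 had a probeset, and 3 of these were SDE, all higher in males, with a median difference of 1.11. They were Avpr1b, the pituitary vasopressin receptor (no female array above the threshold, males at least 1.43-fold higher, fitted difference 1.34, adjusted p = 0.0144), Tbx19, the transcription factor that specifies Pomc cells (1.09, SE 0.20, adjusted p = 0.0127), and Nr3c1, the glucocorticoid receptor (1.13, SE 0.12, adjusted p = 0.00113). Neurod1, a factor of corticotrophs, was below the threshold, at 5.80 in males and 5.90 in females, and Pomc itself did not pass. Nr3c1 read 10.03 to 10.28 in males and 8.56 to 9.27 in females. Its other probeset, at 3.16 in males and 2.93 in females, was below the threshold and did not pass (0.23, adjusted p = 0.567).

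Among 5 thyrotroph regulators 4 were expressed and none passed. Trhr, the receptor for thyrotropin-releasing hormone, differed by -0.37 (SE 0.24, adjusted p = 0.436), and Thrb, a thyroid hormone receptor that represses Tshb, by -0.10 (SE 0.11, adjusted p = 0.639), and Thra, the other thyroid hormone receptor, by -0.08 (adjusted p = 0.74). None of the 5 somatotroph regulators passed either. Ghrhr, the receptor for growth hormone-releasing hormone, differed by 0.31 (SE 0.18, adjusted p = 0.378) and Pou1f1, the factor that specifies somatotrophs, lactotrophs and thyrotrophs, by -0.64 (SE 0.17, adjusted p = 0.0548). Sstr2, a somatostatin receptor, averaged 5.60 in males and 4.28 in females (adjusted p = 0.304).

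Of 10 lineage transcription factors 6 had a probeset and 1 was SDE. Six6, a homeobox factor of the pituitary and eye, was higher in females, at 12.99 to 13.31 against 11.87 to 12.39 (-1.12, SE 0.10, adjusted p = 0.000502). Sox2, a factor of pituitary stem cells, was higher in males by less than 2-fold on 1 of its 4 probesets (0.53, SE 0.11, adjusted p = 0.0221). The others did not pass (adjusted p 0.662 to 0.909). The Sox2 call was lost in 1 fit over all groups (0.292) and without male 2, 3 or 4 or female 3 or 5 (0.0503 to 0.0569). Pitx1, an early factor of the whole gland, differed by -0.34 (adjusted p = 0.0682), and Isl1 by 0.84 (adjusted p = 0.169). Genes of prohormone processing and the secretory granule had no SDE member among 10 measured. Scg2, a granule protein, and Cpe, a carboxypeptidase that trims prohormones, did not pass (0.06, adjusted p = 0.472, and -0.10, adjusted p = 0.207). Chga and Pcsk1n, a granule protein and an inhibitor of prohormone cleavage, were higher in males by 0.78 (SE 0.09, adjusted p = 0.00154) and 0.56 (SE 0.06, adjusted p = 0.00155). Chgb and Scg3, also granule proteins, were higher in females, with differences of -0.48 (SE 0.05, adjusted p = 0.000817) and -0.47 (SE 0.10, adjusted p = 0.0243). The call of Scg3 was lost without male 1, 2, 3 or 5 or female 4 (adjusted p 0.0515 to 0.0594). In 1 fit over all groups the calls of Pcsk1n (0.554), Chgb (0.468) and Scg3 (0.446) were lost.

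Markers of other cells in the sample were read beside these results. None of the 8 genes for the posterior lobe and hypothalamus was expressed. Oxt, the oxytocin transcript of hypothalamic neurons, read 5.85 to 6.64 in males and 2.80 to 5.07 in females (adjusted p = 0.0176), and since no array reached the threshold no fold is given. Avp, the vasopressin transcript, averaged 4.08 in males and 2.84 in females (adjusted p = 0.316), Gnrh1 2.81 and 2.77, and Gfap, a glial marker, 2.23 and 2.15. Of 8 measured markers of folliculostellate, vascular, blood and immune cells none passed. S100b and Anxa1 of folliculostellate cells averaged 10.87 and 9.99 in males and 11.06 and 9.69 in females, and Hbb of red blood cells 13.06 and 13.22. Their part in the sex differences was not tested. Of 3 measured sex steroid receptors none was expressed, and no direction is given for them. Pgr, the progesterone receptor, averaged 3.28 in males and 5.69 in females (adjusted p = 0.00909), Esr1, an oestrogen receptor, 2.94 and 3.86, and Esr2, the other, 2.40 and 2.42. The plot of sex differences sets the hormone genes beside these genes.

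**Figure D2:**
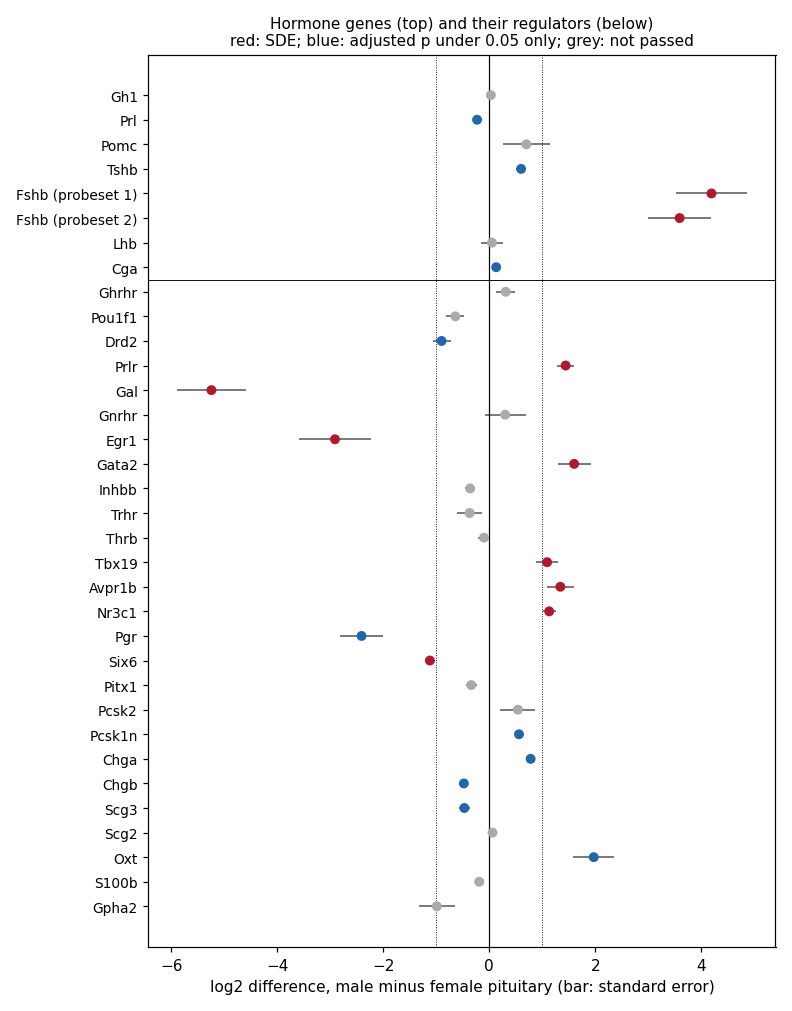
Male minus female difference in the pituitary (x axis, log2, with its standard error) for the 8 hormone probesets (top) and genes of the lists (below), red where SDE, blue where only the adjusted p was under 0.05 and grey otherwise; dotted lines mark 2-fold. Both Fshb probesets lie furthest to the right at 4.19 and 3.59, and Gal lies furthest to the left at -5.24, a fitted value since no male array reached the threshold.

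Windows of 250 bases before the RefSeq start site (build GRCr8) were read for the hormone genes that separated the sexes and for Lhb, which did not, to show the letters beside which their regulators are known to act. RefSeq windows were found for Prl, Pomc, Tshb, Lhb and Cga, and are not shown for Gh1 and Fshb. Each is written 5′ to 3′ on the strand of the gene and ends at the base before the start. Capitals mark matches on either strand to 4 motifs, no match overlapping another. They are a Pou1f1-like motif spelled ATGNATA, an Nr5a1-like motif spelled TGACCTTG, and the motif bound by factors of the Gata2 family, spelled GATAAG. The last is the core promoter box, bound by the general transcription machinery and spelled TATAAA.
Prl (GRCr8 chr17:38298218-38298467, minus strand): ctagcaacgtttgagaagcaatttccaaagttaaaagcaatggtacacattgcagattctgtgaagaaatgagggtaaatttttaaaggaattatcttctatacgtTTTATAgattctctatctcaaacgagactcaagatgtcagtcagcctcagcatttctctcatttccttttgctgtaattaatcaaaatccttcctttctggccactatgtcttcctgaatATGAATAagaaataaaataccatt
Tshb (GRCr8 chr2:192918055-192918304, minus strand): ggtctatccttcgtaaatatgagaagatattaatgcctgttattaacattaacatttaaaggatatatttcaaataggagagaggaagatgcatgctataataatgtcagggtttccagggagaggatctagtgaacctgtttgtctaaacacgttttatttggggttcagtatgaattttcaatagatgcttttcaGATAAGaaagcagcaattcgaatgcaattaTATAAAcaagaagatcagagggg
Lhb (GRCr8 chr1:105037207-105037456, plus strand): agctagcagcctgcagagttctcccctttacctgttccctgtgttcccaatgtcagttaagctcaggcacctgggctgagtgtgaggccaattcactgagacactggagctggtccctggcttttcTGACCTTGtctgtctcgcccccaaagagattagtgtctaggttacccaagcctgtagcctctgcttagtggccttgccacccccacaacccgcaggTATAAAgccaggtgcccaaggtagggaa
Cga (GRCr8 chr5:54283090-54283339, plus strand): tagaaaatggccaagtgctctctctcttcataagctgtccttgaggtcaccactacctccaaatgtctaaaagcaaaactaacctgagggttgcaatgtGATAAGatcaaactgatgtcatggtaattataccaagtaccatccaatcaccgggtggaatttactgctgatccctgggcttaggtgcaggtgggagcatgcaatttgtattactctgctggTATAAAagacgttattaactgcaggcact

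The Prl window held ATGAATA at bases -24 to -18, where 8.73% of all 33469 RefSeq windows of this length hold that motif. Lhb was the 1 gene of the 5 with TGACCTTG, at -124 to -117, which 1.33% of windows hold, and RefSeq lists 2 windows for it, of which 1 is shown. Tshb held GATAAG at -53 to -48 and Cga at -151 to -146, found in 6.18% of windows. The core promoter box, in 12.9% of windows, matched the opposite strand at -144 to -139 in Prl and the gene's own strand at -32 to -27 in Pomc (not printed), at -23 to -18 in Tshb, -28 to -23 in Lhb and -29 to -24 in Cga. Of the factors that bind such letters, Gata2 was the SDE gene above, Nr5a1 averaged 5.76 in males and 6.52 in females (adjusted p = 0.234) and Pou1f1 did not pass. A match describes the sequence and does not show that a factor binds there. Positions are counted from the RefSeq start, and whether the pituitary uses that start was not tested. This bears on Prl above all, where the core box letters had no match on the gene's own strand.

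Outside the pituitary the hormone genes were near the lowest values of the arrays. Over the other 246 arrays the medians were 2.07 for Gh1, 2.35 for Prl, 2.15 for Pomc, 2.41 for Tshb, 2.10 and 2.48 for Fshb, 3.15 for Lhb and 1.82 for Cga. In each of 30 contrasts of the pituitary with another organ (limma, 1 fit over all groups), every one of the 8 probesets was higher by more than 2-fold in the pituitary, the highest adjusted p being 1.31e-30, for Lhb against testes. Of all probesets, 0.796% were so in every contrast. The fit took arrays of the same animal as independent. Arrays of the same sex and replicate number had a common correlation of 0.0105, estimated on 3105 probesets. The genes were chosen as pituitary hormones, so the contrasts describe them and are no finding.

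**Figure D3:**
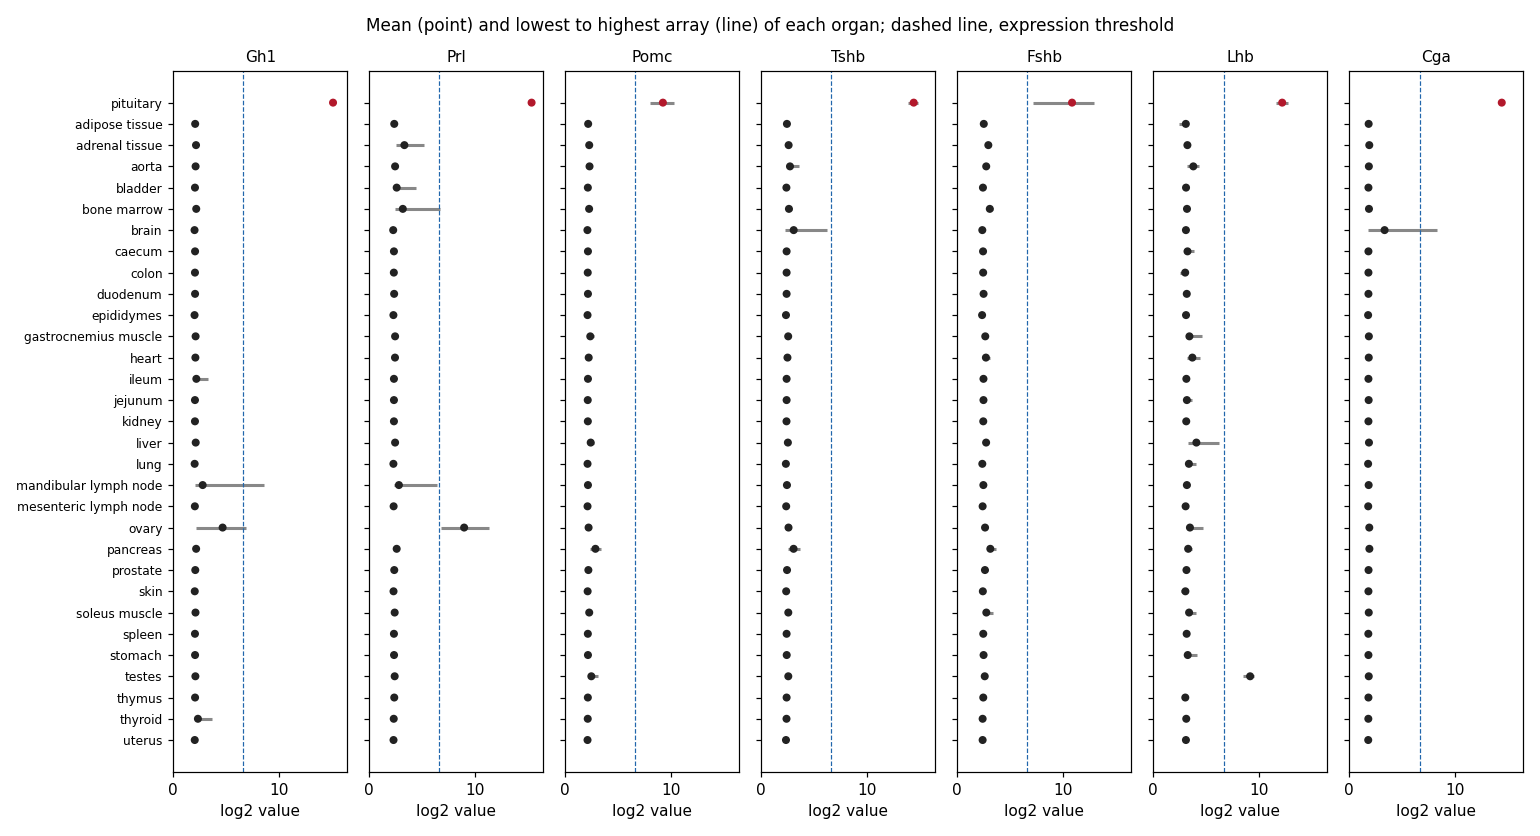
Log2 value (x axis) of each hormone gene in the 31 organs (y axis), as the mean over arrays of both sexes (point, red for the pituitary) and the range from the lowest to the highest array (line); Fshb is shown by its second probeset, and the dashed line is the expression threshold. Means outside the pituitary exceed the threshold only for Prl in ovary (8.99) and Lhb in testes (9.17).

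Even so, 13 of the 246 arrays held a hormone transcript above the threshold. There were 3 such arrays for Gh1, 6 for Prl, 4 for Lhb and 2 for Cga, and 0 for Pomc, Tshb and Fshb. None of the 13 is among the 4 arrays of the series whose sex-linked transcripts go against their labelled sex, and 0 of the 10 pituitary arrays are. The plot of paired hormone values outside the pituitary shows which transcripts appeared together.

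Lhb was above the threshold on every testes array. The 4 arrays read 9.58, 9.42, 8.45 and 9.24, a mean of 9.17, which is 3.07 below the male pituitary. Other hormone genes stayed low on these arrays, Cga at 1.82 to 1.85 and the second Fshb probeset at 2.54 to 2.79, the alpha subunit with which Lhb forms a hormone thus being near its median. No other array reached the threshold for Lhb. The next highest was liver of male 4, at 6.22.

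Prl was above the threshold in all 5 ovaries. Ovaries 1 to 5 read 11.32, 6.96, 9.45, 6.79 and 10.44 for Prl, and 6.87, 2.46, 5.23, 2.15 and 6.70 for Gh1. The 3 ovaries highest for Prl were the 3 with raised Gh1, while ovaries 2 and 4 held Prl just above the threshold with Gh1 near its median. Cga (1.83 to 2.08) and Tshb (2.44 to 2.78) stayed near their medians on the same arrays.

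Gh1 with Prl was also seen in 1 of the mandibular lymph nodes. Male 4 read 8.60 for Gh1 and 6.44 for Prl, with Cga at 2.02 and Tshb at 2.42. The mean of Gh1 in this organ was 2.79 with and 2.07 without that array, and that of Prl 2.81 and 2.36. Bone marrow of male 1 held Prl without Gh1, at 6.71 and 2.18, and the mean of Prl in bone marrow was 3.18 with it and 2.74 without. In adrenal tissue Prl stayed under the threshold, at 3.82, 3.94, 3.15, 3.02 and 5.19 in females and 2.55 to 3.06 in males.

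In brain Cga passed the threshold in males 2 and 5, where Tshb was raised but stayed under it. Brain of male 2 read 8.29 for Cga and 6.24 for Tshb, and brain of male 5 read 7.09 and 5.53. Brain of female 2 held Cga at 4.76, with Tshb at 2.51. Gh1 (2.00 to 2.04) and Prl (2.22 to 2.31) stayed near their medians on all 3 arrays. Without males 2 and 5 the mean of Cga in brain was 2.26 in place of 3.34, and that of Tshb 2.37 in place of 3.07.

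**Figure D4:**
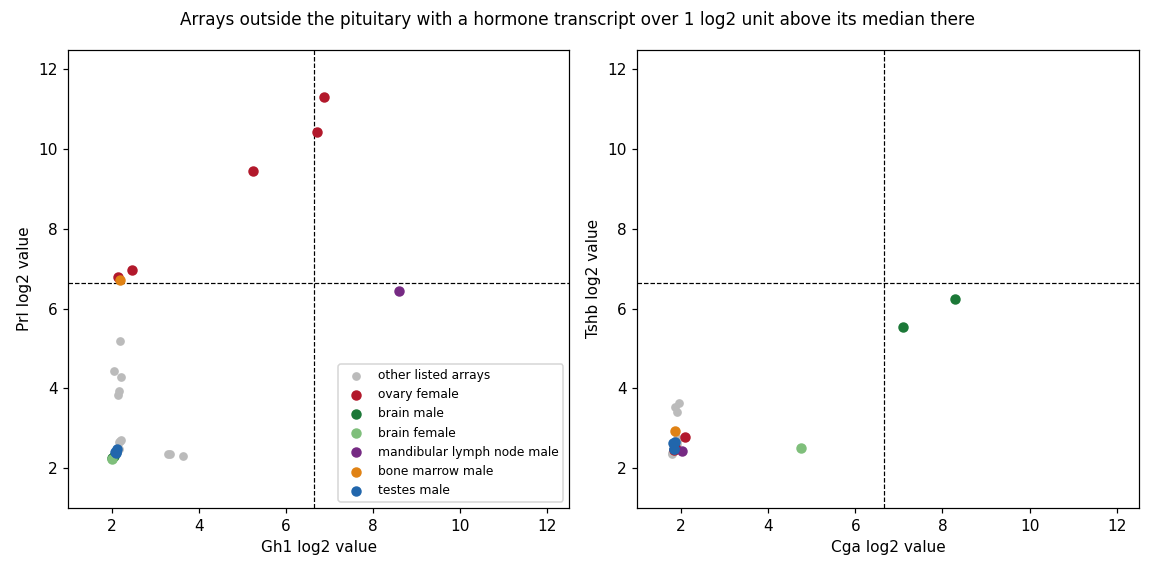
Prl against Gh1 (left) and Tshb against Cga (right), both in log2 values, on the 35 arrays outside the pituitary on which a hormone transcript was over 1 log2 unit above its median there; dashed lines mark the expression threshold. Of the 5 ovaries 3 carry Prl with raised Gh1 and the other 2 carry Prl alone. In 1 mandibular lymph node Gh1 passed the threshold, with Prl just under it. In 2 male brains Cga passed it, with Tshb raised but under it and little Gh1 or Prl.

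Whether these arrays held other pituitary transcripts was read from 9 probesets above 12 in the pituitary and below 5 in at least 28 of the 30 other organs, a panel set after the values were seen. It holds Gh1, Prl, Tshb, Lhb, Cga, Pou1f1, Six6, Dlk1 and 1 probeset without a single symbol. On the 13 arrays above the threshold for a hormone gene, no panel probeset apart from Gh1, Prl, Lhb and Cga was above it. The 4 panel probesets besides the hormone genes averaged 12.19 to 13.12 in the pituitary. They thus lay nearer the threshold there than Gh1 (15.14), Prl (15.38) and Cga (14.44). They could lie under it where one of those 3 just passes, as Prl did on ovaries 2 and 4 (6.96 and 6.79). On such arrays this reading cannot show that other pituitary transcripts were absent. Prl stood further above the threshold on ovaries 1, 3 and 5 (11.32, 9.45 and 10.44). There Cga read 1.87, 1.83 and 2.08, and Tshb 2.54, 2.61 and 2.78. Carry-over from pituitary RNA as a source of these values was not tested.

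In the other 25 somatic tissues no hormone gene had a mean above the threshold in either sex, so that no SDE call was possible there. Of 200 limma tests there, 0 had an adjusted p under 0.05 and 2 an unadjusted p under 0.05, where 1.17% of all tests in these tissues had an adjusted p under 0.05. They were Prl in adrenal tissue, higher in females (-0.98, adjusted p = 0.174), and the second Fshb probeset in bone marrow (0.36, adjusted p = 0.581). The count of adjusted calls was also 0 by the methods' t-test (7 unadjusted) and without the 4 arrays at odds with their labelled sex.

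Receptors of these hormones were read over the organs as a description. Lhcgr, the receptor for luteinizing hormone, averaged 11.22 ± 0.78 in ovary on 1 of its 2 probesets. Tshr, the thyrotropin receptor, was highest in thyroid at 9.05 ± 0.70, followed by adipose tissue at 7.88 ± 0.51. Ghr, the growth hormone receptor, was highest in liver (12.45 ± 0.13) on 1 probeset and in adipose tissue (11.77 ± 0.51) on another. Prlr was highest in adrenal tissue (10.78 ± 0.62) on 1 probeset and in prostate (12.54 ± 0.56) on the one that was SDE in the pituitary. Fshr and Mc2r have no probeset annotated to them here.

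Likeness to each hormone gene was measured as Pearson's r of organ means over the 31 organs, which is set mainly by the pituitary alone. Only single-symbol probesets with a pituitary mean above the threshold were ranked, so the order is a description and no finding. Pou1f1 and Six6 were the 2 most alike genes for Gh1 (r = 0.9797 and 0.9788), Prl, Pomc, Tshb, Fshb and Cga. Prl had lower values than the others, at 0.8932 for Pou1f1 and 0.8891 for Six6, and next came Gnrhr (0.8716), which read 11 in ovary. Lhb had another order, with Rd3 (0.9583), Igsf1 (0.8959) and Rpl39l1 (0.8769), of which the latter 2 are also high in testes (9.53 and 13.95).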

How the data were processed

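RNA of each organ was hybridised to 1 Affymetrix RAE230_2 array per animal and organ. Per the labels and the study's methods, the authors left out arrays that failed quality control, corrected background and normalized with GCRMA (GC-content robust multichip average), and the values they deposited are log2 intensities, with no detection call. The array medians ran from 3.86 to 4.45. Precision was limited by the number of arrays, 5 a sex in the pituitary. Probe symbols came from the platform annotation, 20826 of the 31042 probesets having a single symbol.

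Sexes were compared within the pituitary by limma 3.58.1 (R 4.3.3), with Benjamini-Hochberg adjustment over all 31042 probesets. Probesets were called SDE with the thresholds of the methods (mean above 6.65, over 2-fold, adjusted p under 0.05). Organs were contrasted in 1 limma fit over all arrays. Tissue and sex were taken from the sample titles. Within an organ, separate animals were replicates, and the same animals gave the different organs. Scripts were tested on simulated data. Genes were named by rule: all members, from each list the SDE genes and up to 3 more with the highest pituitary mean (other list genes named here were chosen after their values were seen), the receptors, and 3 genes most like each member. Where a list gene had several probesets, that with the highest pituitary mean was used. The lists comprised regulators of somatotrophs, lactotrophs, gonadotrophs, thyrotrophs and corticotrophs or melanotrophs, sex steroid receptors, lineage factors, granule genes, markers of other cells, hormone receptors, and family relatives. Members and lists were chosen with earlier results of these data known. The 23 family relatives had 18 with a probeset, 1 expressed (Gpha2, -0.99, adjusted p = 0.138) and 0 SDE (Prl8a4 and Prl8a2 were below the threshold), and the 6 hormone receptors had 4 measured, 1 expressed and 1 SDE (Prlr). Alternatives comprised other tests, scalings, thresholds, a replicate block and arrays left out.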

Additional observations from a re-analysis of the deposited data

Results flagged for a closer look

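In 25 sets of 4 or 5 arrays of 1 group and hormone gene, 6 held an array far from the others of its group. The sets came from the pituitary or from organs with a value over 1 log2 unit above the median outside it. Sets outside the pituitary were thus chosen for holding a high value, so no chance rate is set beside this count. In the pituitary the arrays that stood apart were Cga of male 3, high at 14.56, and Prl of female 5, low at 15.45. Elsewhere Prl stood apart in bone marrow of male 1 (6.71), Gh1 and Prl in the mandibular lymph node of male 4 (8.60 and 6.44), and Lhb in ovary 5 (4.69).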

How the results depend on the processing

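Without a fold threshold 994 probesets were higher in males and 646 in females, at 1.5-fold 513 and 387, and without the expression threshold 357 and 307, in place of 188 and 176. At an adjusted p of 0.01, 114 remained above the limits in males. Replicate numbers name different animals in the sexes, and same-numbered arrays did not deviate together (r from -0.0487 to 0.0966). With the replicate block 120 probesets were SDE in males, the second Fshb probeset (3.59) had an adjusted p of 0.0507 and 1 hormone probeset was SDE in place of 2. Of the regulators, Drd2 (0.089), Egr1 (0.0726), Gata2 (0.0523), Avpr1b (0.0781), Tbx19 (0.0721), Scg3 (0.0682) and Sox2 (0.0633) then had adjusted p values above 0.05. Without the fold threshold 5 hormone probesets passed. In 1 fit over all groups, which takes its spread from all organs, Prl (-0.23) lost its call with an adjusted p of 1. Pomc (0.70) gained one there with 1.04e-06.

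The difference of Cga (0.13) lost its call in that fit (adjusted p = 1), by the methods' t-test (0.0544), after quantile normalization (0.0797), with array medians subtracted (0.075), with the replicate block (0.191) and at a threshold of 0.01. It ranged from 0.11 to 0.15 when single arrays were left out. For the first Fshb probeset that range was 3.62 to 4.61. With a trace set at 1 log2 unit above the median, arrays outside the pituitary numbered 7 for Gh1, 12 for Prl, 3 for Pomc, 4 for Tshb, 2 for the second Fshb probeset and 15 for Lhb. The cause of these changes was not tested. Of all values recomputed, 609 stayed on the same side of their threshold, or for counts within 1.5 times and for other values within 1 SD, 48 lost their call, 16 moved further, 1 gained a call and 0 reversed. Means without single arrays that stand apart were added after seeing the data. Depth is not defined for arrays, and their number limits the precision.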
